A study of Mus musculus with 20 samples.

Results

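The glucocorticoid receptor gene Nr3c1 and 9 genes known as its targets in many tissues, namely Sgk1, Fkbp5, Tsc22d3, Zbtb16, Klf9, Txnip, Nfkbia, Bcl6 and Mt2, were followed through conditioned fear (CF) in the mouse amygdala and hippocampus. A gene was taken when a transcript cluster, the group of probes that reports a gene on the array, was paired with its symbol and no other. All 10 genes were found, each with 1 transcript cluster, among 19938 genes that have a cluster of their own and 28853 clusters in all. None of the 10 occurred in a cluster that is paired with several symbols. The values are log2 RMA levels, so a difference of 1 is a doubling, and levels are compared between arrays for the same gene only.

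Male WT and DKO mice aged 2 mo received a single foot shock of 0.7 mA for 2 sec, and brain tissue was punched from both regions at baseline or 0 hr, 1 hr, 48 hr or 1 wk afterwards. DKO mice lack AC1 and AC8, the adenylyl cyclases that calcium stimulates, encoded by Adcy1 and Adcy8, in all tissues. They came from matings that also carried AC8 rescue transgenes, were kept on doxycycline until weaning, and could carry a single transgene, tetop-AC8 or CaMKII-tTA, while WT mice were C57BL/6 animals that were not their littermates. Each of the 20 arrays held RNA pooled from 5 to 10 mice, with 1 array for each region, genotype and time point, so that spread between mice within a pool was not measured. Mice of the 1 wk time point had been placed in the training context for a CF test before they were killed. Baseline mice were killed before training, and all training took place in the early hours of the light phase.

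Glucocorticoids are adrenal steroid hormones whose blood level climbs within minutes of a stressor and also follows a daily rhythm. In the cell they bind the glucocorticoid receptor, which is held by Hsp90 and its cochaperones in the cytoplasm, moves to the nucleus and binds DNA at palindromic response elements, where it turns nearby genes up or down. Amygdala and hippocampus are both rich in the receptor, and the hippocampus also holds much mineralocorticoid receptor, encoded by Nr3c2, which binds the same hormone with higher affinity. Several of the genes studied here feed back on the hormone signal or carry it further. Corticosterone itself was not analysed here.

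Array medians lay between 6.64 and 6.83, and correlations between arrays between 0.983 and 0.9968. Adcy8 averaged 7.10 and 7.41 on the WT arrays of amygdala and hippocampus against 5.65 and 5.41 on the DKO arrays, with no overlap, and the means of 8 hippocampal and of 6 amygdalar marker genes separated the regions on every array. The DKO amygdala array of 48 hr had the lowest highest value of any array, 13.1. Markers of the choroid plexus, which lies beside both regions, averaged between 8.71 and 9.18 on the 4 baseline arrays and between 7.29 and 8.99 on the other 16, and the changes from baseline over the 4 groups and within each region were repeated with this mean as a covariate.

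The amygdala held less RNA of 8 of the 10 genes than the hippocampus, by limma with an adjusted p under 0.05 over 10 arrays per region, and none was higher there. Of all 28853 transcript clusters, 16.3% passed this test. The median log2 difference of the 10 genes, amygdala minus hippocampus, was -0.27, against 0.02 over all clusters. In a punch of tissue, fewer cells of a type and less RNA per cell cannot be told apart.

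Bcl6, a zinc finger transcriptional repressor, differed most. Its WT amygdala arrays read 7.02 before training, 6.67 at 0 hr, 6.99 at 1 hr, 6.94 at 48 hr, then 6.63 at 1 wk, and the DKO ones 6.47, 6.60, 7.04, 6.23 and 6.94 in the same order. Hippocampal arrays read 7.62, 7.87, 8.20, 8.03 and 7.97 in WT mice and 7.97, 7.89, 8.35, 7.52 and 7.88 in DKO mice. The lowest hippocampal array was above the highest amygdalar array, and the mean difference was -1.18 (SE 0.086, limma adjusted p 2.5e-09), or 2.26-fold. Mt2, a metallothionein that binds zinc and copper, was the other gene whose regions did not overlap, with 10.28 to 10.70 on amygdala arrays against 10.79 to 11.27 on hippocampus arrays, a difference of -0.49 (SE 0.046, limma adjusted p 8.0e-08). Among all clusters, 1.99% had every hippocampal array above every amygdalar one.

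For Zbtb16, a zinc finger transcription factor also known as PLZF, the amygdala averaged 7.997 ± 0.256 (SD, n = 10) against 8.53 ± 0.25 for the hippocampus, which was higher in 10 of 10 pairs of arrays of the same genotype and time point. Fkbp5, a cochaperone that lowers the affinity of the receptor for its hormone, averaged 6.86 ± 0.21 (SD, n = 10) and 7.17 ± 0.26, again with 10 of 10 pairs. The ranges of both genes overlapped between the regions. The differences in limma were -0.54 for Zbtb16 (adjusted p 3.8e-05) and -0.31 for Fkbp5 (adjusted p 0.00256).

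Txnip, which binds and inhibits thioredoxin and slows glucose uptake, differed by -0.29 (limma adjusted p 0.00387), and Klf9, a Krüppel-like transcription factor, by -0.25 (limma adjusted p 0.0064). The receptor gene itself had 7.67 ± 0.14 (SD, n = 10) in the amygdala and 7.89 ± 0.15 in the hippocampus, a difference of -0.22 (SE 0.068, limma adjusted p 0.031). Sgk1, a kinase that acts on ion channels and transporters, differed by -0.18 (limma adjusted p 0.047). These last 2 calls were near the threshold. Nr3c1 lost its call when any of 11 of the 20 arrays was left out and kept it without the baseline, 0 hr or 1 hr array of either region in WT mice, the WT hippocampus array of 1 wk, or the DKO amygdala array of 1 hr or 1 wk. Sgk1 lost its call without any of 14 arrays and kept it without the WT hippocampus array of baseline, 0 hr, 48 hr or 1 wk, the WT amygdala array of 48 hr, or the DKO hippocampus array of 1 hr.

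Tsc22d3, which encodes the leucine zipper protein GILZ, and Nfkbia, the inhibitor that keeps NF-κB in the cytoplasm, did not pass, with differences of -0.05 (95% interval -0.14 to 0.05) and -0.08 (95% interval -0.17 to 0.02). On the WT arrays alone 4 genes were called, namely Bcl6, Mt2, Zbtb16 and Fkbp5, and on the DKO arrays alone 8. The share of all clusters called in each of these fits is not given here, so neither count has a background. These 2 counts cannot simply be set side by side, because both the adjustment over all clusters and the differences themselves were unlike. For Fkbp5 a limma p of 0.00021 became an adjusted p of 0.0063 on WT arrays. On DKO arrays a limma p of 0.0046 became 0.0237. The differences on WT and DKO arrays were -0.06 and -0.29 for Sgk1, -0.10 and -0.39 for Klf9, -0.12 and -0.32 for Nr3c1, and -0.18 and -0.39 for Txnip. Bcl6, Mt2 and Tsc22d3 also differed more on DKO arrays. Zbtb16 (-0.64 and -0.43), Fkbp5 (-0.38 and -0.24) and Nfkbia (-0.12 and -0.03) differed more on WT arrays. The difference between the regions in the genotype effect was not called for any of the 10 genes.

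**Figure D1:**
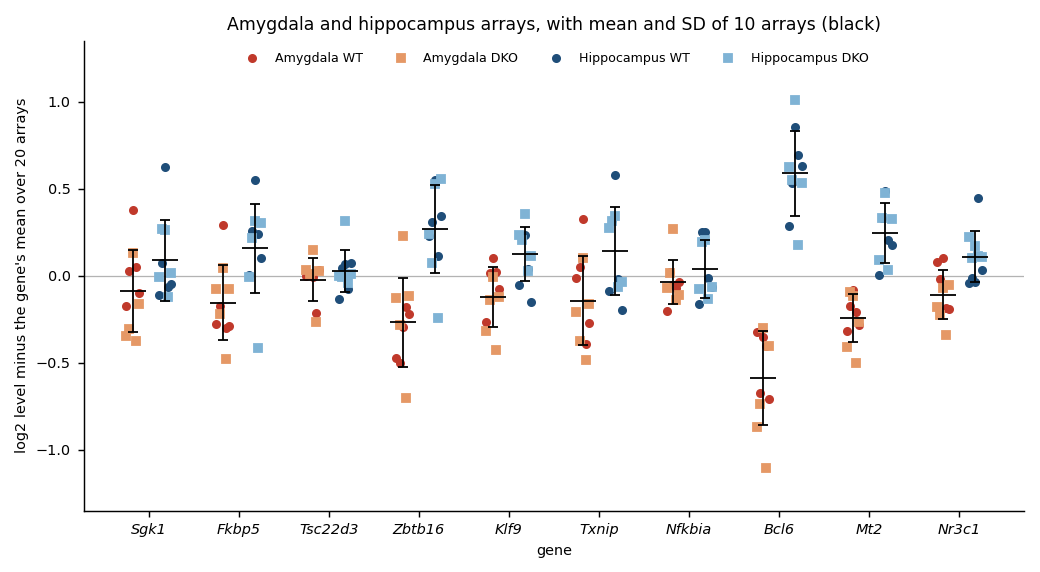
Level of each gene on every array, as its log2 value minus the mean of that gene over all 20 arrays, for the amygdala (left of each pair, red) and the hippocampus (right, blue), with WT as circles, DKO as squares and mean and SD of 10 arrays in black. Bcl6 and Mt2 separate the regions with no overlap, while Tsc22d3 and Nfkbia do not.

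Partners of the receptor and further target genes were counted in the same comparison, in which 16.3% of all clusters passed. Nr3c2, the mineralocorticoid receptor, was lower in the amygdala by -1.45 (SE 0.072) on the log2 scale, and Hsd11b1, which regenerates active corticosterone from its inert form inside the cell, by -1.10 (SE 0.070), so that 2 of the 3 measured genes of their list passed. Of 7 coregulators, the coactivators Ncoa1 (-0.22) and Ncoa3 (-0.28) and the corepressor Nrip1 (-0.17) were lower and none was higher. Of 7 cochaperones, 3 had positive and 4 negative differences, and only Ptges3 (p23) passed, in 1 of its 3 clusters (-0.18). Among 20 further genes known to be induced by glucocorticoids, 7 were lower in the amygdala and Dusp1, a phosphatase that shuts off MAP kinases, was higher (0.33). The 7 were Cebpd (-0.72), Gjb6 (-0.71), Errfi1 (-0.43), Mt1 (-0.36), Usp2 (-0.29), Rasd1 (-0.26) and Rhob (-0.18). Gjb6 encodes a gap junction protein of astrocytes. The mean of 6 astrocyte markers lay between 8.51 and 8.85 on amygdala arrays and between 8.90 and 9.09 on hippocampus arrays, and that of 7 measured oligodendrocyte markers between 7.78 and 8.48 and between 8.37 and 8.73. Their part in the difference between regions was not tested.

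The level of Sgk1 rose 1 hr after CF. Its level on the WT amygdala arrays was 7.501 before training, 7.70 at 0 hr, 8.05 at 1 hr, 7.73 at 48 hr, then 7.58 at 1 wk. The arrays from the WT hippocampus had 7.56, 7.75, 8.30, 7.61 and 7.63 in the same order. In DKO mice the amygdala had 7.33, 7.37, 7.81, 7.30 and 7.51, and the hippocampus 7.67, 7.95, 7.94, 7.55 and 7.69. The 1 hr array was the highest of its group in 3 of 4 groups, and in the DKO hippocampus it was level with the 0 hr array. Over the 4 groups, the 1 hr arrays exceeded the baseline arrays by 0.51 (SE 0.085, 95% interval 0.33 to 0.69, limma adjusted p 0.043), or 1.42-fold, and Sgk1 had the 6th lowest p of all clusters.

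Of all clusters, 0.0243% were called at 1 hr, which is 7 clusters, all of them higher. Sgk1 was the only one of the 10 genes among them. This call stood close to the threshold. It was lost without any of 15 of the 20 arrays, with adjusted p between 0.024 and 0.247 over all 20, while the difference itself lay between 0.43 and 0.58. The 5 arrays without which it held were the WT arrays of 48 hr in both regions, the DKO hippocampus arrays of 0 hr and 1 hr and the DKO amygdala array of 1 wk. With the choroid plexus mean as a covariate the difference was 0.57 (limma adjusted p 0.022), and with the oligodendrocyte mean 0.51 (limma adjusted p 0.084). At baseline and 1 hr the choroid plexus mean was 8.89 and 8.90 in the DKO amygdala, where Sgk1 was higher by 0.48. It was 8.71 and 8.99 in the WT hippocampus, where Sgk1 was higher by 0.74. It was lower at 1 hr in the WT amygdala (8.88 and 7.52) and the DKO hippocampus (9.18 and 7.55), where Sgk1 was higher by 0.55 and 0.27. The part of choroid plexus tissue in the Sgk1 difference was not tested beyond this covariate.

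Among windows of 300 bases around annotated gene starts in RefSeq (250 bases before and 50 after, assembly GRCm38.p6), 16 belong to 8 of the 10 genes. None is given for Zbtb16, and none was used for Nr3c1. They were searched on both strands for AGAACA or its reverse complement TGTTCT, the core of each arm of the glucocorticoid response element, and for the whole palindrome of AGAACA, 3 free bases and TGTTCT. This core, which the palindrome holds at either end, was present in 5 of the 16 windows, or 31.2%, against 18.97% of all 32851 windows. Several windows can belong to 1 gene, as for Sgk1. By gene, the core was present in 3 of the 8, against 21.3% of all 27025 genes. The palindrome was present in 1 of the 16, at a start of Sgk1, and in 3 of all 32851. The stretch is shown because Sgk1 was the gene that passed the test at 1 hr. It runs from 250 bases to 1 base before that start, chr10:21993640-21993889 on the plus strand. Both cores of the palindrome are in capitals at 21993701 to 21993715, the first base lying 189 bases before the start. A further TGTTCT outside the palindrome, near the beginning of the stretch, is left in lower case.
Sgk1: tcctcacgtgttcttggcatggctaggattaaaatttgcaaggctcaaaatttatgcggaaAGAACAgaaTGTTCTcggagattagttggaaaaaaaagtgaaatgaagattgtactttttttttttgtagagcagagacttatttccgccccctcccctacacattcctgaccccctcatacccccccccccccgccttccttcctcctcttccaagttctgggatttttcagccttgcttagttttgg

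Single cores lay in 1 window each of Bcl6 and Tsc22d3 and in other windows of Sgk1. Those of Bcl6 and Tsc22d3 are given as 30 bases on the strand of the gene, with the core in capitals, so that they can be set beside the palindrome. They come from chr16:23981390-23981419 and chrX:140600690-140600719, both on the minus strand.
Bcl6: gctgggcaggagTGTTCTgtgaaatcctta
Tsc22d3: ccgcattcgacaTGTTCTaagttctgagac
The windows of Fkbp5, Klf9, Txnip, Nfkbia and Mt2 held no core. A match of letters is a description of these windows, which hold no more than 250 bases before a start.

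Beyond Sgk1, no gene of the 10 passed the test at 1 hr, but their differences were alike in sign. All 10 were positive, as were 50.8% of all clusters, with a median of 0.32 against 0.002 over all clusters. Counted without adjustment, 9 of 10 had a limma p under 0.05 and a higher level at 1 hr, all but Nr3c1, and 3.85% of all clusters did. The genes share the same arrays and were chosen with earlier results of these data known, so this is a description. The count was 9 without the DKO amygdala array of 48 hr, 8 with the choroid plexus mean as a covariate, and fell to 6 without the WT hippocampus array of baseline. On the arrays of a single region or genotype it was 4 for the amygdala, 8 for the hippocampus, 6 for WT mice and 5 for DKO mice. The differences were 0.39 for Fkbp5 (95% interval 0.16 to 0.61), 0.37 for Bcl6 (0.09 to 0.66), 0.35 for Mt2 (0.20 to 0.50), 0.35 for Txnip (0.14 to 0.55), 0.29 for Nfkbia (0.14 to 0.45), 0.29 for Zbtb16 (0.03 to 0.54), 0.27 for Klf9 (0.10 to 0.44) and 0.16 for Tsc22d3 (0.01 to 0.31). Their limma adjusted p lay between 0.153 for Mt2 and 0.809 for Tsc22d3 and Zbtb16.

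Fkbp5, Klf9 and Txnip had their highest value at 1 hr in all 4 groups, as 0.825% of all clusters did. Fkbp5 in WT mice had 6.74, 6.84, 7.30, 6.71 and 6.72 in the amygdala from baseline to 1 wk, and 7.02, 7.27, 7.56, 7.25 and 7.12 in the hippocampus. In DKO mice it had 6.94, 6.79, 7.06, 6.53 and 6.94 in the amygdala, and 7.01, 7.23, 7.33, 6.60 and 7.31 in the hippocampus. In the WT amygdala the other 4 arrays thus lay close together below the 1 hr array, whereas in DKO mice the 1 wk array came near the 1 hr array in both regions.

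For Txnip the WT hippocampus arrays read 7.12 before training, 7.53 at 0 hr, 7.79 at 1 hr, 7.19 at 48 hr, then 7.02 at 1 wk, against 7.48, 7.53, 7.55, 7.15 and 7.17 in the DKO hippocampus. The DKO baseline array was thus already near the highest value of its group. On WT arrays Klf9 had 7.44, 7.72, 7.81, 7.73 and 7.63 for the amygdala, then 7.65, 7.94, 7.94, 7.74 and 7.56 for the hippocampus, where the 0 hr and 1 hr arrays stood level.

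Each group had its own baseline array, and 7 of the 10 genes were above it at 1 hr in all 4 groups, namely Sgk1, Fkbp5, Zbtb16, Klf9, Txnip, Nfkbia and Mt2. Of all clusters, 12.4% were. Bcl6 was above baseline in 3 groups and at -0.03 in the WT amygdala, Tsc22d3 was above in 3 and at -0.005 in the WT amygdala, and Nr3c1 was above in 3. On single arrays, with no test, only Sgk1 (1.67-fold) and Txnip (1.59-fold) exceeded 1.5-fold, both in the WT hippocampus, where 0.97% of all clusters were that much higher. The corresponding shares of all clusters were 0.17% in the WT amygdala, 0.367% in the DKO amygdala and 0.142% in the DKO hippocampus, and none of the 10 genes reached 1.5-fold there or at another time point in any group.

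**Figure D2:**
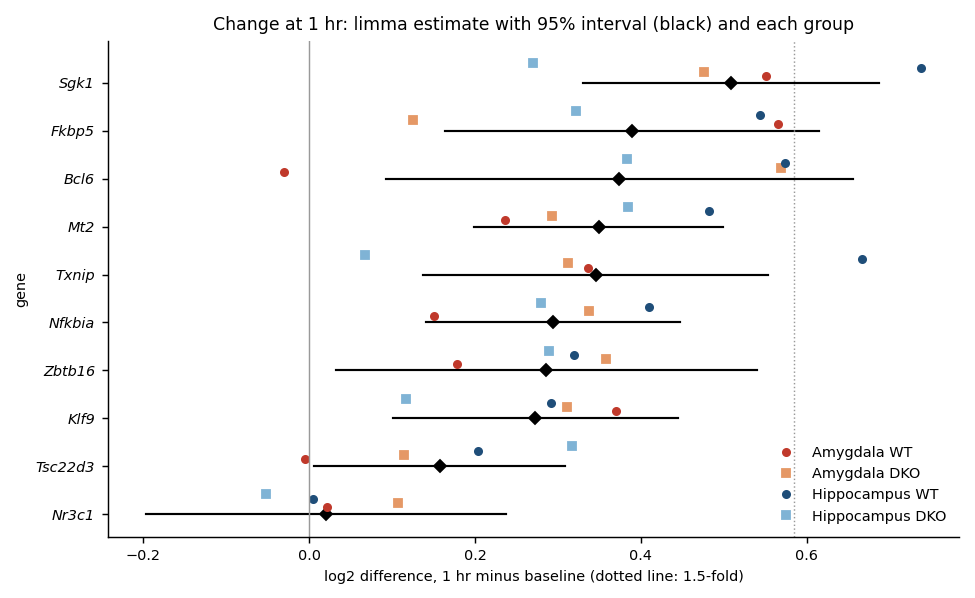
Log2 difference between 1 hr and baseline for each gene, as the limma estimate over 4 groups with its 95% interval (black) and as the change of each group from its own baseline array (coloured, above the line). Sgk1 lies furthest right with 0.51, 9 intervals lie above 0, and that of Nr3c1 is centred near 0.

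The receptor did not show this pattern. Nr3c1 had a difference of 0.02 (95% interval -0.20 to 0.24) at 1 hr and between -0.06 and -0.01 at the other time points. Its WT levels were 7.86, 7.76, 7.88, 7.59 and 7.59 for the amygdala, against 7.74, 7.76, 7.74, 8.23 and 7.81 for the hippocampus, and its levels on the DKO amygdala arrays 7.60, 7.55, 7.71, 7.44 and 7.72. In the DKO hippocampus the baseline array was the highest, with 7.88, 7.95, 7.89 and 7.89 after it. The WT hippocampus array of 48 hr stood above the other 19. Its mean of the amygdalar markers, 7.47, was also the highest of the hippocampus arrays, with 7.13 next, on the DKO baseline array. Nr3c1 itself averaged lower on amygdala arrays (7.67) than on hippocampus arrays (7.89). The part of tissue composition in this Nr3c1 level was not tested.

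Differences at 1 hr were positive for 50.8% of all clusters, with a median of 0.002. A higher level with an unadjusted limma p under 0.05 was found in 3.85% of them. Of the 20 further glucocorticoid-induced genes, 17 were higher at 1 hr than at baseline, with a median of 0.12. In this list 6 had an unadjusted limma p under 0.05, all higher. The 7 cochaperones and the 7 coregulators were positive without exception, with medians of 0.11 and 0.10 and 1 unadjusted p under 0.05 in each list. The 3 receptor and steroid metabolism genes had a median of 0.02, and 1 of them an unadjusted p under 0.05, also higher. None of these genes passed at any time point.

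At 0 hr none of the 10 genes was called, and 0.00347% of all clusters were, that is 1. The differences were positive in 7 of 10, near the 64.6% of all clusters, with a median of 0.10 against 0.03 over all clusters. A higher level with an unadjusted limma p under 0.05 was found in 3 of the 10 genes and in 1.90% of all clusters. Mt2 had 0.26 (95% interval 0.11 to 0.41) and Nfkbia 0.25 (95% interval 0.09 to 0.40), the 21st and 33rd lowest p of all clusters, and both were above baseline in 4 of 4 groups. Klf9, at 0.18 (95% interval 0.01 to 0.35), was the third gene of 10 with an unadjusted p under 0.05. All 3 had a limma adjusted p of 1.

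Between baseline and 0 hr, Nfkbia read 7.16 and 7.39 on the WT amygdala arrays and 7.30 and 7.38 on the DKO ones. The hippocampus arrays read 7.21 and 7.62 in WT mice and 7.29 and 7.56 in DKO mice. In both hippocampal groups the 1 hr array stood at the same height as the 0 hr array, 7.62 and 7.57. For Mt2 the baseline and 0 hr arrays had 10.46 and 10.61, 10.37 and 10.69, 10.79 and 11.11, and 10.87 and 11.11 in the order WT amygdala, DKO amygdala, WT hippocampus, DKO hippocampus.

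The step from 0 hr to 1 hr differed between genes in size. It was 0.39 for Bcl6, 0.35 for Zbtb16, 0.33 for Sgk1, 0.28 for Fkbp5 and 0.26 for Txnip, each with an unadjusted limma p under 0.05. It was between 0.05 and 0.12 for Nfkbia, Klf9, Mt2, Nr3c1 and Tsc22d3, none of which had one. Over all clusters, 1.52% were higher with an unadjusted limma p under 0.05 for this step. None of the 10 was called for it, with limma adjusted p of 0.837 or more. Whether the steps of these genes differ from each other was not tested.

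At 48 hr no cluster was called (0%). An unadjusted limma p under 0.05 was found in 1036, with 2.85% of all clusters lower and 0.75% higher. Of the 10 genes Txnip alone had one, with -0.23 (95% interval -0.44 to -0.02). Txnip lost it after a further quantile normalization or with arrays centred on their median. Its 48 hr arrays were below baseline in the WT amygdala (6.82 and 7.20), the DKO amygdala (6.728 and 6.999) and the DKO hippocampus (7.15 and 7.48), and close to it in the WT hippocampus (7.19 and 7.12). The median of the 10 genes was -0.05 against -0.03 over all clusters.

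At 1 wk, 0.00347% of all clusters were called and none of the 10 genes, none of which had an unadjusted p under 0.05. The median of the 10 genes was 0.07 against 0.03 over all clusters. Sgk1 was then 0.09 above baseline (95% interval -0.09 to 0.27), and its interval at 48 hr was -0.15 to 0.21. The 1 wk mice had returned to the training context shortly before, so a late level and a response to that test cannot be told apart.

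**Figure D3:**
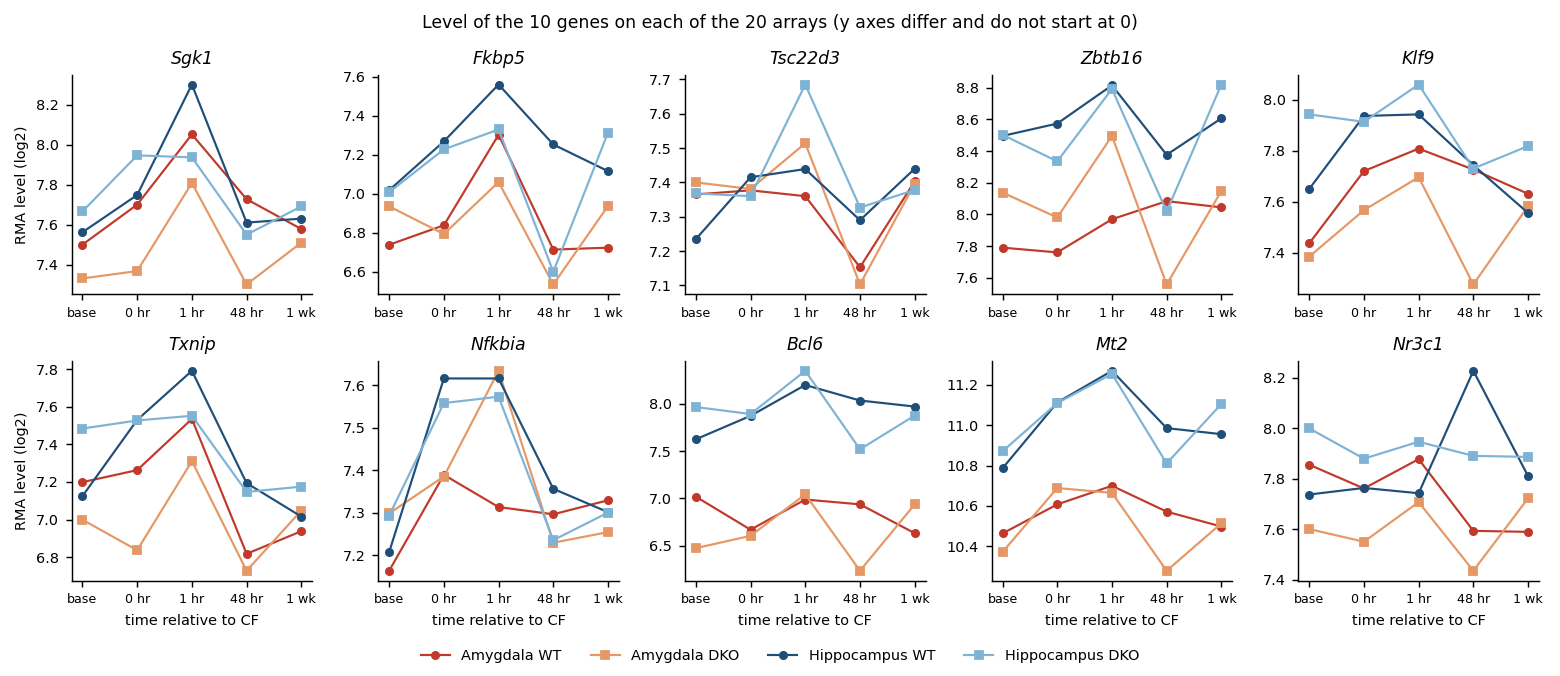
Log2 level of each gene on all 20 arrays against time relative to CF, 1 panel per gene with its own axis, amygdala in red and hippocampus in blue, WT as circles and DKO as squares. Most of the 9 target genes peak at 1 hr and are near or below baseline at 48 hr in DKO mice, while Nr3c1 is highest at 1 hr in the WT amygdala alone.

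Genotype was compared within each region with the 5 time points as replicates and an adjusted p under 0.1 as the limit. None of the 10 genes was called in either region, where 0.097% of all clusters were called in the amygdala and 0.118% in the hippocampus. Sgk1 in the amygdala had the lowest p of them. Its mean was 7.71 ± 0.21 (SD, n = 5) in WT mice and 7.46 ± 0.21 in DKO mice, a difference of -0.25 (95% interval -0.49 to -0.008). It was the single gene of the 10 with an unadjusted limma p under 0.05 in the amygdala, and its adjusted p was 0.646. Of all clusters, 4.72% were lower in DKO mice with such a p and 2.10% higher. DKO was below WT at all 5 time points for Sgk1 in the amygdala, although the ranges overlapped.

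In the hippocampus no gene of the 10 had an unadjusted limma p under 0.05, while 7.67% of all clusters were lower with one and 3.75% higher. Sgk1 there differed by -0.01 (95% interval -0.28 to 0.25). The 95% intervals of the other genes lay within -0.48 and 0.42 in the amygdala and within -0.42 and 0.33 in the hippocampus, and effects within these intervals are not excluded by 5 arrays per group. The receptor gene differed by -0.13 (95% interval -0.31 to 0.05) in the amygdala and by 0.06 (95% interval -0.12 to 0.25) in the hippocampus. Markers of striatal neurons averaged between 8.56 and 9.33 on WT amygdala arrays and between 8.40 and 8.60 on DKO ones, and markers of the thalamus between 7.75 and 8.38 on WT hippocampus arrays and between 8.27 and 8.85 on DKO ones. Their part in these differences was not tested beyond a fit with both means as covariates, in which none of the 10 was called either. That fit moved the values, however. In the hippocampus the median difference of the 10 genes went from -0.002, with 5 of 10 positive, to 0.23, with 10 of 10 positive, and in the amygdala from -0.10 to -0.07.

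Whether the change at 1 hr differed between genotypes was tested with the regions as replicates. No cluster was called (0%), with 554 at an unadjusted p under 0.05. The change of Sgk1 was 0.64 in WT mice and 0.37 in DKO mice, a difference of -0.27 (95% interval -0.61 to 0.07). Fkbp5 changed by 0.57 and 0.54 in the WT amygdala and hippocampus and by 0.13 and 0.32 in the DKO ones, a difference of -0.33 (95% interval -0.66 to -0.005, limma adjusted p 1.00), and was the one gene of the 10 with an unadjusted p under 0.05. Bcl6 pointed the other way with 0.20 (95% interval -0.24 to 0.65).

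At 48 hr the DKO arrays were low for most of the 10 genes. All 10 were below baseline in both DKO groups, against 5 in the WT amygdala and 1 in the WT hippocampus. The share of all clusters above baseline was 54.9% in the WT amygdala and 62.5% in the WT hippocampus. On the DKO arrays of 48 hr it was 24.7% in the amygdala and 26.8% in the hippocampus. The median change over all clusters was also below 0 on these 2 arrays, -0.13 in the DKO amygdala and -0.09 in the DKO hippocampus, against -0.20 and -0.16 for the 10 genes. No cluster was called for the difference between genotypes in this change (0%), with 3767 at an unadjusted p under 0.05 and a median of -0.15 over all clusters.

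Zbtb16 (-0.62), Fkbp5 (-0.51), Bcl6 (-0.51) and Klf9 (-0.35) had an unadjusted limma p under 0.05 in that comparison. Relative to the median of each array the differences were -0.42, -0.32, -0.31 and -0.16, and Zbtb16 alone kept an unadjusted p under 0.05. Zbtb16 changed at 48 hr by -0.58 and -0.48 in the DKO amygdala and hippocampus, and by 0.29 and -0.12 in the WT ones. Fkbp5 changed by -0.40 and -0.41 in DKO mice, and by -0.02 and 0.24 in WT mice. The limma adjusted p was 0.331 for both genes.

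**Figure D4:**
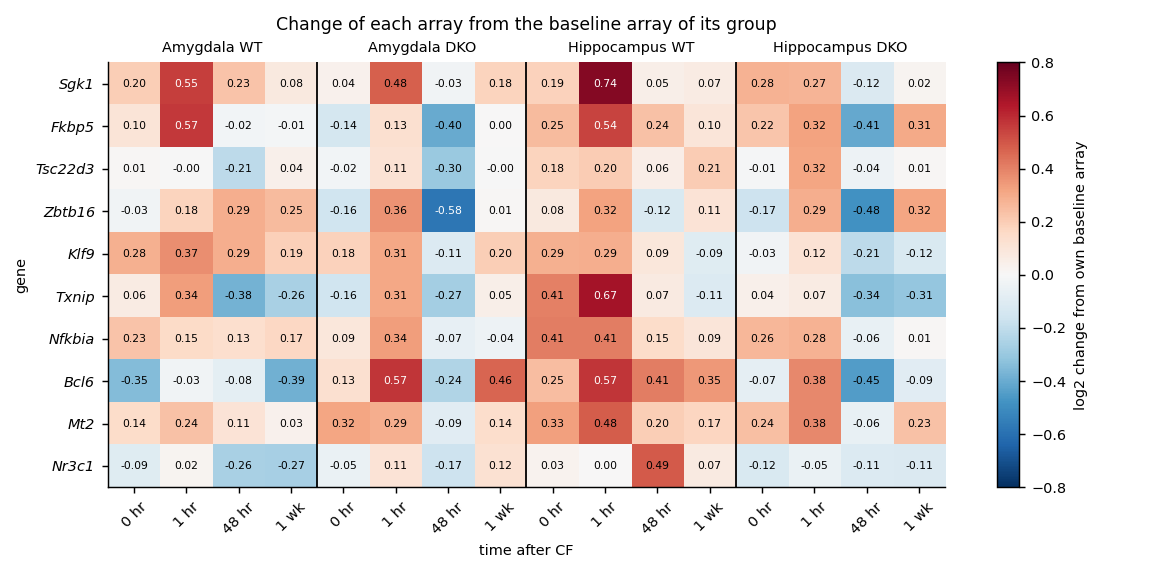
Log2 change of each array from the baseline array of its own group, with genes in rows and the 4 groups of region and genotype in blocks of 4 time points. The 1 hr columns are positive for nearly all target genes, and the 48 hr columns of both DKO groups are negative for all 10 genes. At 48 hr, 24.7% of all clusters were above baseline in the DKO amygdala and 26.8% in the DKO hippocampus. Each value rests on 1 array against 1 array.

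Within the groups the 9 target genes varied together. After each group of region and genotype was centred on its own mean, Pearson's r over the 20 arrays was positive for 36 of 36 pairs of targets, from 0.38 for Zbtb16 with Txnip to 0.81 for Nfkbia with Mt2, with a median of 0.65. The median r of these genes with all transcript clusters was 0.13. With each array centred on its median beforehand the values were 0.65 and 0.06. Nr3c1 had r between -0.04 and 0.47 with the targets, highest with Bcl6. The points share arrays, pools and time points, and the correlations are given as a description.

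Outside the list, the genes most like Sgk1 by this measure were Clk1 (0.88), Pex11a (0.83), LTO1 (0.82), Prpf3 (0.82) and Kansl2 (0.82), where Clk1 is a kinase of splicing factors. Those most like Fkbp5 were Pbrm1 (0.91), Kbtbd7 (0.90), Bet1l (0.89), Ap1g1 (0.88) and Pds5b (0.88). For Tsc22d3 they were Slc15a4 (0.92), 2610507B11Rik (0.87), Acsl6 (0.86), Asrgl1 (0.86) and Rbsn (0.86). For Nr3c1 they were Adgrl2 (0.91), Meis2 (0.87), Fnbp1l (0.86), Wdr17 (0.86) and Wdr12 (0.85), of which Meis2 was also used as an amygdalar marker here.

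**Figure D5:**
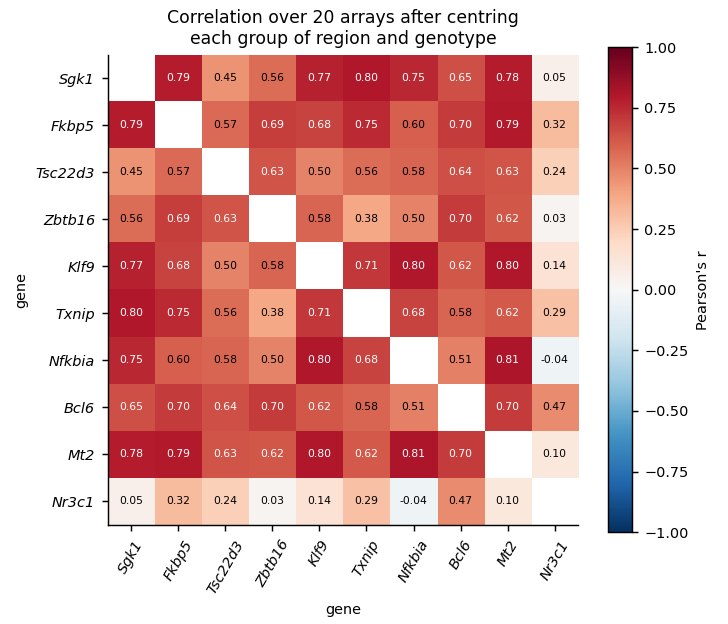
Pearson's r between each pair of the 10 genes over 20 arrays, after the mean of each group of region and genotype was taken off. All pairs of the 9 target genes are positive, with a median of 0.65, while Nr3c1 has values from -0.04 to 0.47.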

How the data were processed

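RNA of micropunches was hybridised to 20 Affymetrix Mouse Gene 1.0 ST arrays. The deposited values are log2 levels that the authors made by RMA in the Affymetrix Expression Console (version not given), that is background correction, quantile normalization and summary per transcript cluster. The arrays still differed somewhat in median and spread, so centred and further quantile-normalized values were used as alternatives. All 20 value columns match a sample, and all arrays and clusters were kept. The build behind the array annotation is not given in the sources used here.

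Comparisons used limma 3.58.1 (lmFit, eBayes) in R 4.3.3 on all 28853 clusters, with Benjamini-Hochberg adjustment over all of them. Genotype was tested within each region over 5 time points (adjusted p 0.1). Region was tested with genotype and time as terms, and changes from baseline over the 4 groups, both at an adjusted p of 0.05, as were the interactions. It is not stated whether both regions came from the same mice, so the p-values measure the spread between these arrays, and their number limits the precision. Single arrays were compared at 1.5-fold with no test. Scripts were tested on simulated data. The 10 genes and all lists were chosen with earlier results of these data known. All member clusters are named, list genes where they passed a test, and the 5 genes most correlated with Sgk1, Fkbp5, Tsc22d3 and Nr3c1. Listed genes without a cluster of their own were not used here. Promoter windows came from RefSeq (GRCm38.p6). Alternatives were other normalizations, a level filter, another variance model, array weights, blocks, arrays left out, the t-test of the methods, other limits, and marker means as covariates, the last added after the data were seen. Plots used Python 3.11.15 and matplotlib 3.10.9.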

Additional observations from a re-analysis of the deposited data

Results flagged for a closer look

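In 5 of 40 combinations of gene and group, 1 array stood apart from the other 4 by a gap above Dixon's 95% critical value of 0.71 of the range. Chance alone gives about 1 in 20, and the 5 arrays of a group are different time points. Sgk1 was 8.30 at 1 hr in the WT hippocampus, with 7.75 next. Fkbp5 was 7.30 at 1 hr in the WT amygdala, with 6.84 next. Tsc22d3 was 7.68 at 1 hr in the DKO hippocampus, with 7.38 next, and 7.15 at 48 hr in the WT amygdala, with 7.36 next. Nr3c1 was 8.23 at 48 hr in the WT hippocampus, with 7.81 next. That array also had the highest amygdalar marker mean of the hippocampus arrays, 7.47. Nr3c1 averaged lower in the amygdala than in the hippocampus.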

How the results depend on the processing

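The number of the 10 genes called for the region was 8, and 7 with a variance trend, 4 on WT arrays alone and between 6 and 8 without each array in turn. For the change at 1 hr, 1 gene was called, and 2 with array weights (Sgk1 and Mt2). It was 0 after a further quantile normalization, on amygdala, hippocampus, WT or DKO arrays alone, and with the oligodendrocyte mean as a covariate, and between 0 and 1 without each array in turn. Fits on fewer arrays have fewer degrees of freedom. In the hippocampus alone, 1 gene was called at 1 hr with the choroid plexus mean as a covariate and 0 without it. No alternative that was run gave a call for genotype, for 0 hr, 48 hr or 1 wk, or for an interaction. On single arrays, 2 combinations of gene and group were past 1.5-fold at 1 hr. Over all time points, combinations of gene, group and time past it were also 2. Both counts were 3 after a further quantile normalization or with arrays centred on their median. They were 12 and 24 at 1.3-fold and 0 and 0 at 2-fold. The change of Nr3c1 at 1 hr, never called, turned to -0.0251 after quantile normalization, -0.0237 on hippocampus arrays alone and -0.0357 with the oligodendrocyte mean, and lay between -0.0372 and 0.0843 without each array in turn. Using every cluster of a gene changed nothing, since each gene has 1. The labels give no replicate numbers, but arrays share time points. With the time point as a block for genotype, and genotype and time point for the region, the counts of genes called stayed at 0 and 8. For arrays, their number limits the precision, and signal over background was not analysed here.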
